A study of Mus musculus with 12 samples.

Results

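Chromatin regulators are taken here as the genes whose platform symbol begins with Kdm, Kmt, Hdac, Smarc, Chd, Brd, Setd, Arid or Phf. They were covered by 60 probe sets for 43 genes, out of 11868 on the Affymetrix array C of the mouse U74 set once its control probe sets were left out. The rule reads names and no measured values, although it was set with earlier results of these data known. Hippocampal RNA was measured in 4 groups of 3 arrays: control mice given saline, control mice given kainate, mutant mice given saline and mutant mice given kainate. The mutants are described as mice that have lost CREB and CREM. The sources used here give neither their alleles, the driver of the deletion and the cells in which it took place, nor whether the controls carry any of those alleles. All mice were littermates of both sexes, 5 to 6 weeks old, which were caged singly and handled for 5 days. They received 20 mg/kg kainate, an agonist of glutamate receptors that evokes seizures, or saline, both intraperitoneally, and tissue was taken after 1 hour. RNA of 3 animals was pooled for every array, so the spread between arrays is a spread between pools. In such whole-tissue RNA, fewer cells of a type and less RNA per cell cannot be told apart.

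DNA in the nucleus is wound around histone proteins, and enzymes that mark histones or slide them along the DNA decide which genes the transcription machinery can reach. Writers such as the Kmt and Setd methyltransferases add marks, erasers such as the Kdm demethylases and the Hdac deacetylases take them off, readers with bromodomains (Brd) or PHD fingers (Phf) bind them, and many Smarc and Chd proteins remodel nucleosomes with energy from ATP or belong to complexes that do. Arid proteins share a DNA-binding domain and belong to several kinds of complex. CREB binds the cAMP response element in promoters and recruits the acetyltransferases CBP and p300, and class IIa deacetylases such as HDAC4 move between cytoplasm and nucleus with neuronal activity. The name rule also takes in proteins with other known roles. SETD3 methylates actin, PHF24 binds an inhibitory G protein subunit, and SMARCAL1 reanneals DNA at stalled replication forks.

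Promoter windows from RefSeq (GRCm38.p6), from 250 bases before to 50 bases after each transcript start, were searched because CREB and CREM bind the cAMP response element. The full element TGACGTCA and its shorter core TGACG were sought on both strands, and a full element counts as holding the core. Windows were listed for 34 of the 43 genes, 44 windows in all. The full element was found in 1 window, that of Phf8 (2.27%, against 1.79% of all 32851 windows searched). The core was found in 15 windows (34.1%, against 20.8% of all). By gene, 14 genes had it (41.2%, against 23% of all genes listed), and 9 of these were measured well enough to test: Arid4b, Chd5, Hdac4, Phf10, Phf20, Phf8, Smarca1, Smarcad1 and Smarcd3. A match describes letters in a window and not a bound site. In all, 20 tested genes had a window. Those without the core were Arid5b, Brd3, Hdac9, Kdm5c, Kdm7a, Phf14, Phf24, Setd3, Setd5, Smarca4 and Smarcal1, many of which also recur in the results. Only windows that hold the core are shown, for some of the 9 genes, so they do not stand for the members at large. They run 5′ to 3′ on the gene's strand, with the elements in capitals, CGTCA being the core read on the opposite strand.
Phf8 (chrX:151520422-151520721, plus strand): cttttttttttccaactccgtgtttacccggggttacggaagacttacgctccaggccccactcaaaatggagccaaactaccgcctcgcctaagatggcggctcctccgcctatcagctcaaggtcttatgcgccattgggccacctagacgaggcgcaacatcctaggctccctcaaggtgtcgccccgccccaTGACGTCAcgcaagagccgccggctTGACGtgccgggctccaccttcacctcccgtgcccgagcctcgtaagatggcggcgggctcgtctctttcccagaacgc
Hdac4 (chr1:92180292-92180591, minus strand): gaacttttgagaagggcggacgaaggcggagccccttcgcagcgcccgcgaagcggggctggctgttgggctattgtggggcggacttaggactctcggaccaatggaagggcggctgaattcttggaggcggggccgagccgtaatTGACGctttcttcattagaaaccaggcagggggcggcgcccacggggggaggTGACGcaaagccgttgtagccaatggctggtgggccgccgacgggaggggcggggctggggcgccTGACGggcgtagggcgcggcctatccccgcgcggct
Chd5 (chr4:152338401-152338700, plus strand): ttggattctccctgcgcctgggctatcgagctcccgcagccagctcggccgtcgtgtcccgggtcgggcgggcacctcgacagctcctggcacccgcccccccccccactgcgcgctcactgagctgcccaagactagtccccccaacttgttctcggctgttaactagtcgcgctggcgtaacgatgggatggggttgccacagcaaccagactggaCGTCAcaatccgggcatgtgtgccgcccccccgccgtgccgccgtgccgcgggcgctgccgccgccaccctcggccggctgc
Phf10 (chr17:14961211-14961510, minus strand): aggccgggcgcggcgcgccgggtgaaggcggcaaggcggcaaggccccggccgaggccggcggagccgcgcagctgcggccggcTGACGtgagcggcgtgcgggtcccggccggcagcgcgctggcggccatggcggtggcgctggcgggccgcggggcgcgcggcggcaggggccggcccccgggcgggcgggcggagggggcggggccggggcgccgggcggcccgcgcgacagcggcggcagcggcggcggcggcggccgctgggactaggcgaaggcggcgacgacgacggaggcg
Smarcad1 (chr6:65042341-65042640, plus strand): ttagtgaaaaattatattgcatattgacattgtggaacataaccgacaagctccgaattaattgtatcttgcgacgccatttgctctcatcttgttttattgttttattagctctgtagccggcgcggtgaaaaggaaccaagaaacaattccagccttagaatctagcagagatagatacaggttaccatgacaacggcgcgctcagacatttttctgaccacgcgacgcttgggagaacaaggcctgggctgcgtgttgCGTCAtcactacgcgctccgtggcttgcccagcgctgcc
The full element of Phf8 began 54 bases before the start, with a further core 29 bases before it. Hdac4 carried the core 103 and 51 bases before and 14 bases after its start, Chd5 32 bases before, Phf10 166 bases before and Smarcad1 11 bases after. Another window of Smarcad1 (chr6:65042956-65043255) held no core. Chd1, Chd7, Kdm5a, Kmt2e, Phf3 and Setd1b have no entry.

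Of the 60 probe sets, 33 (55%), for 26 genes, reached a log2 GCRMA value of 4 on 3 or more arrays, the level below which probe sets were not tested. Over the whole array 3541 probe sets (29.8%) did so, and of the 7717 with 1 gene symbol, as all members have, 2713 (35.2%) did. Among the 33, 23 were at or above that level on all 12 arrays and 10 on 3 to 11 arrays. By the suffix of their names, 20 were of the plain _at type and 13 of other types. The only tested probe sets of Brd3 and Phf8 (_f_at), Kdm5c and Setd3 (_r_at) and Kdm7a and Hdac9 (_i_at) were of other types. Whether those read their named gene alone was not tested. Sorted by prefix and not by known activity, the Kmt and Setd genes measured were Kmt2e, Setd1b, Setd3 and Setd5. The Kdm and Hdac genes were Kdm5a, Kdm5c, Kdm7a, Hdac4 and Hdac9. The Chd and Smarc genes were Chd1, Chd5, Chd7, Smarca1, Smarca4, Smarcad1, Smarcal1 and Smarcd3, and the Arid genes were Arid4b and Arid5b. The Brd and Phf genes were Brd3, Phf10, Phf14, Phf20, Phf24, Phf3 and Phf8. By prefix, 10 of 13 Smarc and both Arid probe sets were tested, but 3 of 8 Kdm, 1 of 4 Kmt and 1 of 4 Brd. The 17 genes with no tested probe set were Kdm3a, Kdm5b, Kdm6a, Kdm8, Kmt2c, Kmt5b, Hdac11, Smarca2, Smarce1, Brd8, Brdt, Setd2, Setd4, Phf11d, Phf20l1, Phf21a and Phf7. Just inside the level lay Chd7, at 3.93 to 4.10 and at or above 4 on 3 arrays, all of them mutant. Just outside lay a second probe set of Setd3, at 4.92 on mutant kainate replicate 3 and at 2.75 to 3.36 on the others, and one of Kdm5c, which peaked at 3.98. In all, 9 genes had both tested and untested probe sets. The untested ones of Chd1 (133979_at), Phf20 (168119_r_at) and Hdac4 (170184_r_at) read 2.28 to 2.38, 2.72 to 2.91 and 2.13 to 2.30.

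**Figure D1:**
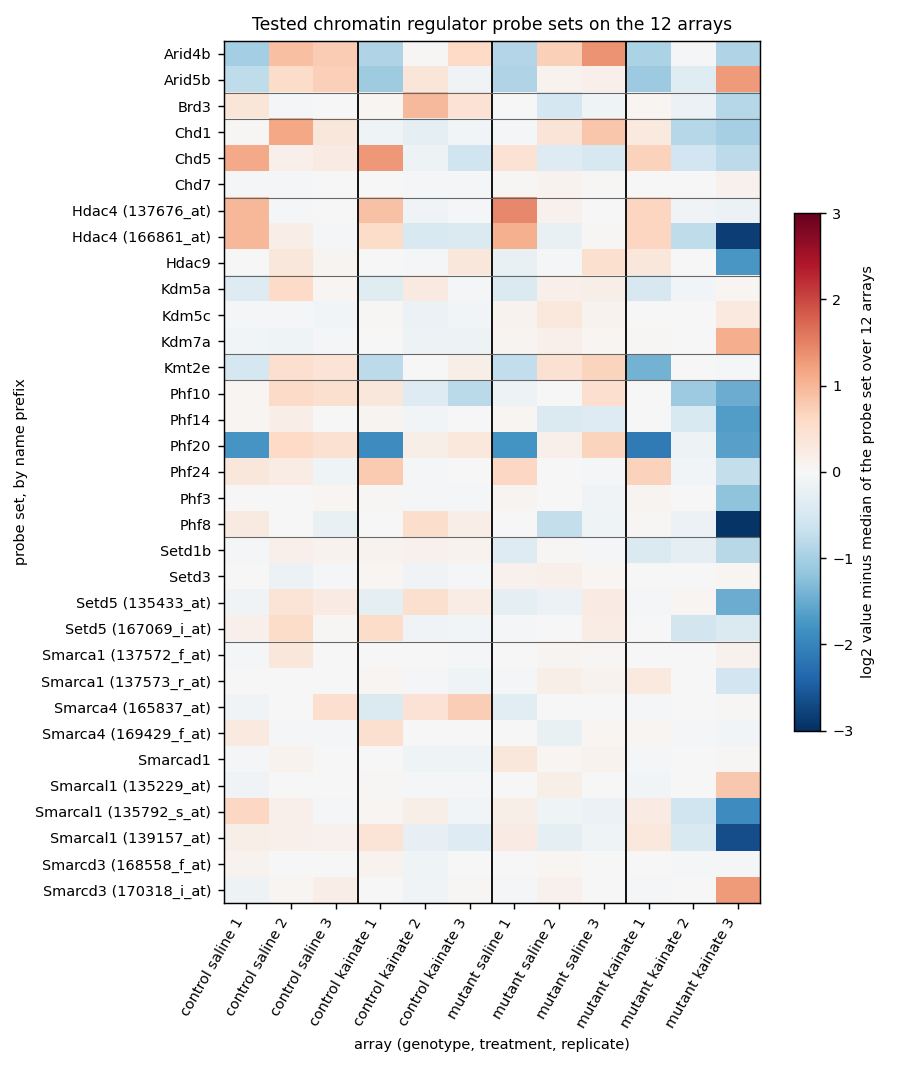
Each row is 1 of the 33 tested probe sets and each column 1 of the 12 arrays; colour gives the log2 GCRMA value minus that probe set's median over the arrays. Mutant kainate replicate 3 was the lowest of the 12 arrays for 16 rows, and replicate 1 lay apart from replicates 2 and 3 in 10 rows.

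The arrays were not all alike. Over all probe sets the SD of mutant kainate replicate 3 was 1.52, against 1.71 to 1.78 on the other arrays, and this array was the lowest of the 12 for 16 of the 33 members (48.5%, against 38.9% of all tested probe sets). Gfap, an astrocyte marker, was at 12.95 on control kainate replicate 3, against 11.51 and 11.53 on the other arrays of its group. After saline it was at 11.59, 10.75 and 11.13 in controls and at 13.00, 12.47 and 12.23 in mutants, a difference of 1.41 (adjusted p = 0.385), the highest of all 3541 tested probe sets in that comparison. The difference between the 3′ and 5′ probe sets of beta-actin, a measure of RNA integrity, was 2.20 to 2.44 on the kainate arrays of replicates 2 and 3, 1.74 to 1.83 on their saline arrays, and in replicate 1 was 1.92 and 2.00 after saline but 1.77 and 1.61 after kainate. Kcnj2, an activity-regulated potassium channel gene, was 2.71 higher after kainate over both genotypes (adjusted p = 0.000162). Apold1, Sik1 and 1 of the Egr3 probe sets also passed 0.05 there. Egr4 (1.84, adjusted p = 0.158) and the other Egr3 probe set (1.20) did not. In control mice alone Kcnj2 passed (3.28), but Apold1 (2.55) and Sik1 (1.89) did not (limma, adjusted p = 0.0678 for each). Egr4 (1.62) and Egr3 (1.61 and 1.43) did not pass either, though all were higher without overlap. Differences of this size can thus miss the threshold, so 0 passing members does not show that none changed. Probe sets of Creb1 and Crem were not lower in the mutants, and where they lie relative to the deleted parts is not given, so they check nothing. The neuronal markers tested (3 of 14: Meg3, Syn1 and Syn2) averaged 8.75 to 9.02, the microglial markers tested (3 of 11: Cx3cr1, Laptm5 and P2ry12) averaged 7.30 to 7.61 on mutant saline arrays and 6.92 to 7.20 on control saline arrays, and no principal-cell marker of the hippocampus (0 of 14) was tested. Beside these stood interneuron markers (2 of 10: Pvalb and Vip), which averaged 7.01 to 7.32 in control mice after kainate and 6.17 to 6.92 after saline, and in mutants 5.09 to 7.39 and 5.92 to 6.84, which overlap. The astrocyte markers tested (4 of 13: Apoe, Gfap, Pla2g7 and Slc1a2) averaged 6.37 to 6.92 on mutant saline arrays and 6.16 to 6.49 on control saline arrays. Dynlrb2, the only marker of choroid plexus and ependyma tested (1 of 8), was lower after kainate without overlap in both genotypes, at 4.42 to 4.49 against 4.58 to 4.72 in controls and at 4.36 to 4.56 against 4.67 to 4.91 in mutants. The part of any of these in the member values was not tested.

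No chromatin regulator passed the test in any of the 7 comparisons. Differences are between mean log2 values, tested with limma on all 3541 probe sets together, with Benjamini-Hochberg adjustment over all of them and a threshold of 0.05. For kainate against saline, 0 of 33 members passed in control mice (0.0282% of all tested probe sets did), 0 in mutant mice (0.0282%) and 0 over both genotypes (0.141%). For mutant against control, 0 passed after saline, 0 after kainate and 0 over both treatments, and 0 passed for the interaction of genotype and kainate (0% of all tested probe sets in each of these 4). At an unadjusted p under 0.05, the kainate comparisons gave 0 members in controls (4.46% of all tested probe sets), 3 in mutants, all lower (8.47% of all, 6.92% lower), and 3 over both genotypes, all lower (11.3% of all, 8.11% lower). The genotype comparisons gave 2 after saline, both higher in mutants (12.1% of all, 10.7% higher), and 2 after kainate, both lower (4.72% of all, 3.81% lower). Over both treatments they gave 4, of which 2 were higher (14.3% of all) and 2 lower (4.8%), with 19.1% of all in either direction, and the interaction gave 0 (0.875%). With 33 members, these counts lie near the shares over the whole array.

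Small differences leaned lower among the members. After kainate, 27 of 33 were lower over both genotypes, with a median difference of -0.17, while 68.4% of all tested probe sets were lower, with a median of -0.04. In mutants against controls over both treatments, 23 of 33 were lower with a median of -0.19, against 51.1% and -0.01 for all. The members varied more between replicates than other probe sets did, with a median SD within groups of 0.39 against 0.21. The member medians drew in part on mutant kainate replicate 3. Without that array, the member medians were -0.07 for kainate and -0.12 for genotype, against -0.03 and 0.02 for all. Then 24 of 33 members were lower after kainate (60.7% of all) and 21 of 33 were lower in mutants (42% of all). Quantile normalization repeated on all arrays left 21 of 32 members lower after kainate, with 46.6% of all probe sets lower in place of 68.4%, and 21 of 32 lower in mutants, with 42.7% of all. Both averaged comparisons use all 12 arrays.

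**Figure D2:**
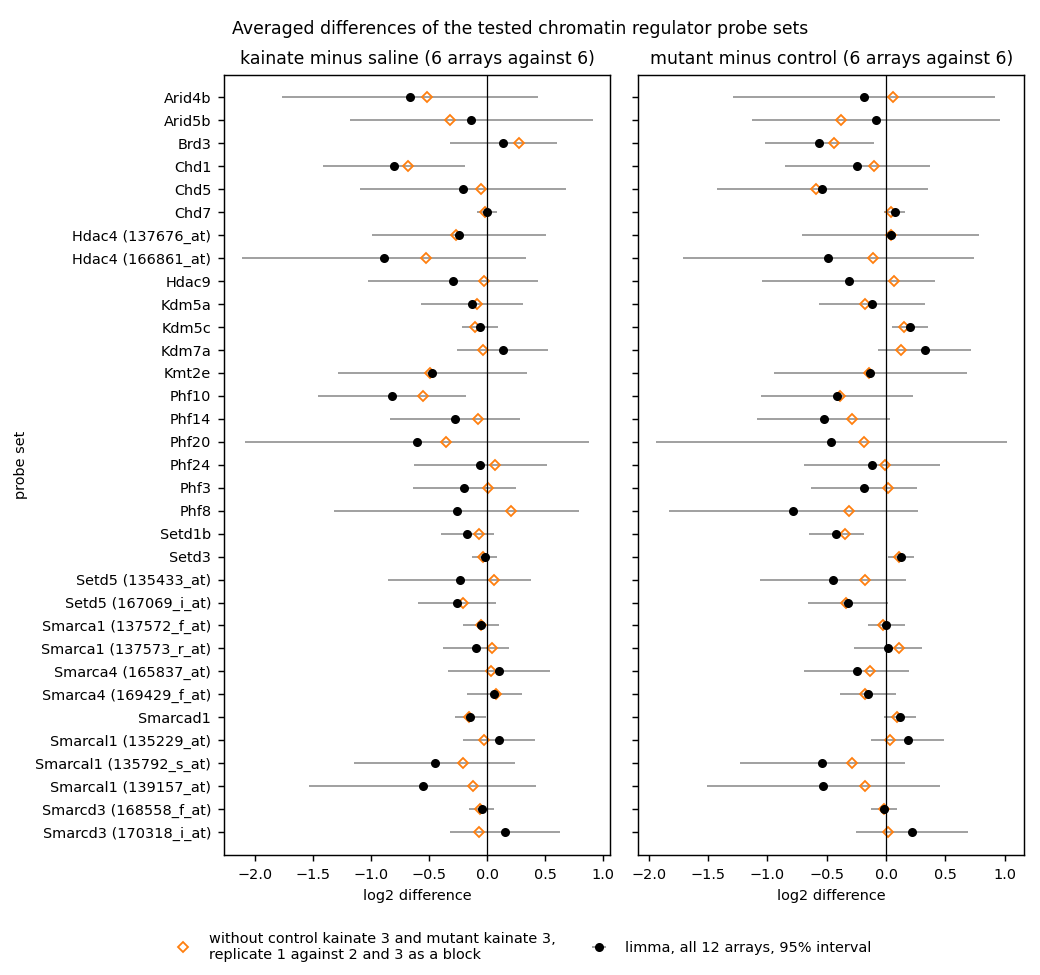
Points give each tested member's difference for kainate minus saline over both genotypes and for mutant minus control over both treatments, in log2 units, with bars for the 95% confidence interval; open diamonds leave out control and mutant kainate replicate 3 and set replicate 1 as a block. Most points lie below 0 in each panel, 27 of 33 for kainate and 23 of 33 for genotype, and none passed the adjusted threshold.

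Among the Kmt and Setd genes, Setd1b, a methyltransferase of lysine 4 of histone H3, had the lowest p of the members between genotypes. Its log2 values on control arrays were 7.57, 7.75 and 7.70 after saline and 7.72, 7.72 and 7.72 after kainate. On mutant arrays they were 7.22, 7.63 and 7.57 after saline and 7.17, 7.30 and 6.78 after kainate. All mutant kainate arrays thus lay below all control kainate arrays, whereas the saline groups overlapped. Over both treatments Setd1b was lower in mutants by a difference of -0.42 ± 0.10 (SE; 95% interval -0.65 to -0.19; unadjusted p = 0.00238; limma, adjusted p = 0.247), and it was lower in 6 of 6 pairs of arrays with the same replicate number. After kainate alone the difference was -0.64 ± 0.14 (adjusted p = 0.55), the only non-overlap lower in that comparison among the members (1 of 33, against 3.78% of all lower and 2.43% higher). Over both treatments it was -0.45 in replicate 1 alone and -0.40 in the remaining replicates, and -0.18 after the repeated quantile normalization. With that normalization the kainate groups overlapped for Setd1b. Then 0 of 32 members were lower in mutants after kainate without overlap (89 of 3482 for all) and 2 were higher (145 for all).

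Setd5, a protein with a SET domain that is tied to histone deacetylase complexes, has a pair of tested probe sets. The first (135433_at) read 7.14, 7.66 and 7.47 in control saline, 6.97, 7.71 and 7.47 in control kainate, 6.97, 7.06 and 7.49 in mutant saline, and 7.17, 7.31 and 5.74 in mutant kainate. Its values overlapped across all groups except for the lone low array in the last. It was lower in mutants by a difference of -0.45 ± 0.27 (adjusted p = 0.372), or -0.20 without mutant kainate replicate 3. The other probe set (167069_i_at) differed by -0.32 ± 0.15 (adjusted p = 0.274). Kmt2e, a relative of the trithorax methyltransferases that reads methylated lysine 4 of histone H3, read 4.92, 5.93 and 5.85 in control saline and 4.66, 5.42 and 5.62 in control kainate. In the mutants it read 4.70, 5.90 and 6.11 after saline and 4.02, 5.46 and 5.41 after kainate. Each kainate array was below the saline array of its own number and genotype, 6 of 6, although replicate 1 lay below the others in every group. The difference after kainate was -0.47 ± 0.36 over both genotypes (adjusted p = 0.684), and -0.47 both in replicate 1 alone and in the remaining replicates. With the replicate number as a block the SE was 0.10 and the adjusted p 0.225.

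Setd3, the actin methyltransferase, read 4.07, 3.91 and 4.05 in control saline and 4.21, 4.24 and 4.14 in mutant saline. All mutant saline values were above the control ones, by 0.19 ± 0.07 (adjusted p = 0.385), and sat close to the level of 4. Kdm5c, which demethylates lysine 4 of histone H3 and is encoded on the X chromosome, read 4.77, 4.76 and 4.72 in control saline and 4.91, 5.11 and 4.91 in mutant saline. Its difference of 0.23 ± 0.10 (adjusted p = 0.392) again separated the groups. The labels used here do not give the sexes in each pool. For this X-linked gene, a difference in sex between pools and one in genotype thus cannot be told apart. Kdm7a, a demethylase of lysines 9 and 27 of histone H3, read 4.82, 4.79 and 4.85 in control saline and 4.99, 5.06 and 4.96 in mutant saline (difference 0.18 ± 0.25, adjusted p = 0.964). With Chd7 and 1 of the Smarcal1 probe sets (135229_at), these made 5 of 33 members higher in mutants after saline without overlap (15.2%), against 29% of all tested probe sets, and no member was lower without overlap, against 5.11%. Chd7 was tested only because mutant arrays reached 4, so its direction here follows from that level. Below it the arrays were offset too, since 23 of the 27 untested members and 75.2% of all untested probe sets were higher in mutant saline without overlap, by medians of 0.0413 and 0.0441. The average of the microglial markers and Gfap alone were also higher without overlap on those arrays, as given above. The average of the 4 tested astrocyte markers, Gfap included, overlapped (6.37 to 6.92 against 6.16 to 6.49). The part of these markers in the member differences was not tested. After kainate, Kdm7a read 4.93, 4.77 and 4.75 in controls and 4.94, 4.89 and 6.01 in mutants, where replicate 3 stood alone. Over both treatments, Kdm7a was higher in mutants by 0.32 ± 0.17 (adjusted p = 0.321), or 0.14 without that array, and Kdm5c by 0.20 ± 0.07 (adjusted p = 0.247).

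Among the deacetylases, Hdac4 was lower after kainate in all 6 same-numbered pairs with both of its tested probe sets. The first (166861_at) read 8.42, 7.61 and 7.39 in control saline, 7.97, 6.96 and 6.97 in control kainate, 8.47, 7.20 and 7.44 in mutant saline, and 8.05, 6.66 and 4.58 in mutant kainate. Replicate 1 was the highest in every group, and mutant kainate replicate 3 was far below the rest. The other (137676_at) read 5.50, 4.45 and 4.52, then 5.39, 4.39 and 4.43 in the controls, and 5.95, 4.63 and 4.48, then 5.14, 4.40 and 4.32 in the mutants. Both thus showed replicate 1 above the others in each group. The differences after kainate over both genotypes were -0.89 ± 0.54 (adjusted p = 0.594) and -0.24 ± 0.33, or with the replicate number as a block -0.89 ± 0.35 and -0.24 ± 0.09 (adjusted p = 0.325 and 0.294). Without mutant kainate replicate 3 the first was -0.43, and without that array and control kainate replicate 3, with replicate 1 set against replicates 2 and 3 as a block, it was -0.53 ± 0.09 (adjusted p = 0.104). Over all tested probe sets 5.14% were lower in 6 of 6 pairs, and among the members 4 of 33 were (Hdac4 with both, Kmt2e and Phf20). Hdac9, another class IIa deacetylase, read between 8.46 and 9.15 on 11 arrays and 6.92 on mutant kainate replicate 3, with no further separation between groups.

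**Figure D3:**
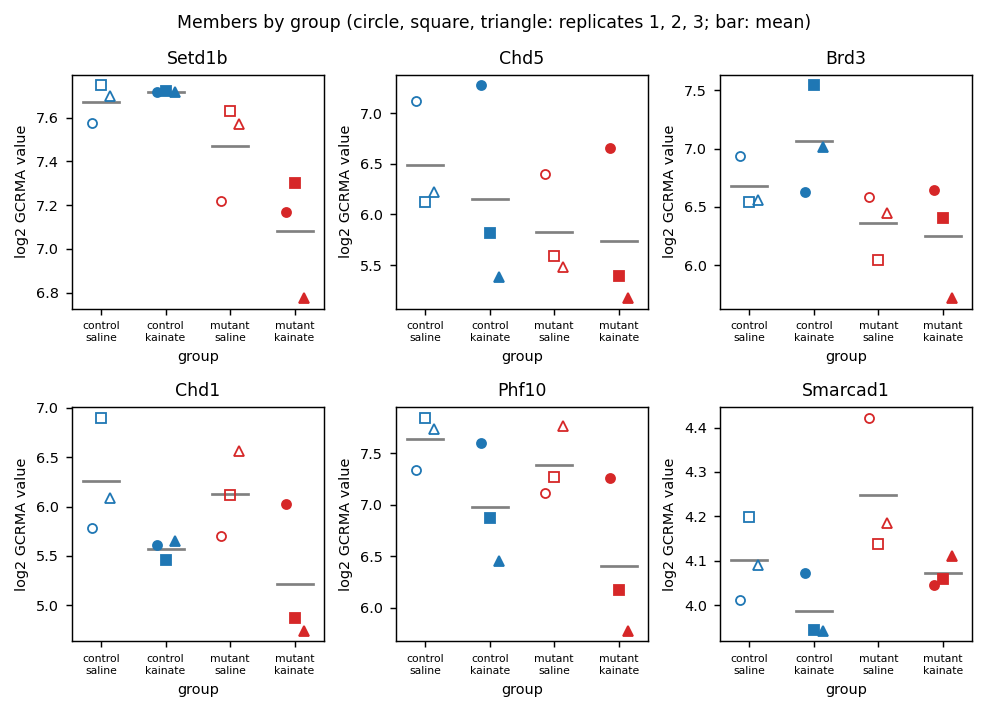
Log2 GCRMA values of selected members on each array, by group, with replicate 1 as circles, replicate 2 as squares and replicate 3 as triangles. For Setd1b the mutant kainate arrays, at 6.78 to 7.30, lie below the control kainate arrays at 7.72.

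Among the remodellers, Chd1, which binds methylated lysine 4 of histone H3 and spaces nucleosomes in transcribed genes, was lower after kainate on the arrays of replicates 2 and 3. It read 5.79, 6.90 and 6.08 in control saline and 5.61, 5.46 and 5.65 in control kainate. In mutants it read 5.70, 6.12 and 6.57 after saline and 6.02, 4.88 and 4.74 after kainate. The control groups did not overlap, the only such member there (1 of 33 lower, against 4.63% of all, and 0 higher, against 6.02%), whereas in the mutants replicate 1 after kainate exceeded a saline array. The difference was -0.68 ± 0.39 in controls (adjusted p = 1), -0.91 ± 0.39 in mutants (adjusted p = 0.579) and -0.80 ± 0.27 over both (95% interval -1.41 to -0.19; adjusted p = 0.349). In replicate 1 alone it was 0.07 and in the remaining replicates -1.24, those in which the actin difference was also larger after kainate than after saline. Without mutant kainate replicate 3 and control kainate replicate 3 it was -0.68 with replicate 1 as a block, and without control saline replicate 2, the highest array, the difference in controls was -0.36.

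Chd5, a neuronal remodeller of the NuRD type, was lower in mutants on every same-numbered pair, 6 of 6. It read 7.11, 6.13 and 6.22 in control saline and 7.27, 5.82 and 5.38 in control kainate. In the mutants it read 6.40, 5.59 and 5.48 after saline and 6.65, 5.39 and 5.18 after kainate. Replicate 1 was the highest of each group, and the genotype difference was -0.54 ± 0.40 (adjusted p = 0.442), or -0.54 ± 0.13 with the replicate number as a block (adjusted p = 0.246). In replicate 1 alone it was -0.67, and in the remaining replicates -0.47. With replicate 1 as a block and without the third kainate array of each genotype it was -0.59 ± 0.10 (adjusted p = 0.0596), the lowest adjusted p of the alternatives run for any member named here. Setd1b, Chd5 and Phf14 were the 3 members lower in all 6 pairs (against 8.27% of all tested probe sets), and Kdm7a the 1 higher in all 6 (against 3.13%).

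Smarcad1, a remodeller that acts at replicated and damaged DNA, read 4.42, 4.14 and 4.19 in mutant saline and 4.05, 4.06 and 4.11 in mutant kainate. These did not overlap, the only such member in mutants (1 of 33 lower, against 8.44% of all, and 0 higher, against 1.67%), but all values lay near the level of 4. The difference was -0.18 ± 0.08 in mutants (adjusted p = 0.586) and -0.14 ± 0.06 over both genotypes (adjusted p = 0.403). Without mutant saline replicate 1, the highest array, the difference in mutants was -0.089. After the repeated quantile normalization the mutant groups overlapped for Smarcad1. Then 0 of 32 members were lower after kainate in mutants without overlap (121 of 3482 for all) and 1 was higher (225 for all). Arid4b, a subunit of the SIN3A deacetylase complex, read 4.78, 6.72 and 6.58 in control saline, 4.91, 5.85 and 6.42 in control kainate, 4.92, 6.52 and 7.16 in mutant saline and 4.86, 5.77 and 4.90 in mutant kainate. Its replicate 1 was low in all groups, and the difference after kainate of -0.66 ± 0.49 (adjusted p = 0.673) was 0.04 in replicate 1 alone and -1.01 in the others. Arid5b, a DNA-binding partner of the demethylase PHF2, read 4.58, 5.89 and 6.06 in control saline and 4.29, 5.71 and 5.25 in control kainate. In the mutants it read 4.45, 5.44 and 5.50 after saline and 4.26, 4.98 and 6.62 after kainate, so the last array of the mutants was the highest of all 12. Its interaction of 0.58 was -0.09 without that array.

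Several SWI/SNF and ISWI genes have more than 1 tested probe set. Smarcd3, a subunit of the neuronal BAF complex, read 5.21 to 5.45 on all 12 arrays with 1 of its probe sets (168558_f_at). The other (170318_i_at) read 4.42 to 4.75 on 11 arrays and 5.83 on mutant kainate replicate 3. Smarca4, the ATPase of BAF, read 4.30 to 5.49 with 1 probe set (165837_at) and 4.58 to 5.30 with the other (169429_f_at), with overlapping groups in both. Smarca1, the SNF2L ATPase of ISWI complexes, lay at 3.92 to 4.35 on the arrays other than mutant kainate replicate 3 with both probe sets. Smarcal1 has 3 tested probe sets, and on mutant kainate replicate 3 they read 4.05 (139157_at), 3.07 (135792_s_at) and 4.82 (135229_at). The values for 139157_at and 135792_s_at were the lowest and that for 135229_at the highest of the 12 arrays for their probe sets, so probe sets of 1 gene parted on that array. For 135792_s_at the genotype difference of -0.54 ± 0.31 was -0.25 without it.

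Among the Phf and Brd genes, Phf10, a subunit of the PBAF remodelling complex, was, like Chd1, lower after kainate on the arrays of replicates 2 and 3. It read 7.33, 7.84 and 7.74 in control saline and 7.60, 6.88 and 6.46 in control kainate. In mutants it read 7.12, 7.27 and 7.77 after saline and 7.26, 6.17 and 5.78 after kainate. The kainate arrays of replicates 2 and 3 were below every saline array of both genotypes, while those of replicate 1 were not. The difference over both genotypes was -0.82 ± 0.28 (adjusted p = 0.352), with 0.21 in replicate 1 alone and -1.33 in the remaining replicates. Brd3, which binds acetylated histones through bromodomains, read 6.93, 6.54 and 6.56 in control saline, 6.63, 7.54 and 7.01 in control kainate, 6.59, 6.04 and 6.45 in mutant saline and 6.64, 6.40 and 5.72 in mutant kainate. The genotype groups overlapped after either treatment, and the difference over both was -0.56 ± 0.20 (adjusted p = 0.247), with -0.17 in replicate 1 alone and -0.76 in the others. These Brd3 values come from 168320_f_at alone, since its other probe set (167884_at) read 1.16 to 1.27 and was not tested.

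Phf14, a PHD finger protein that binds histone H3, read 7.76, 7.88 and 7.69 in control saline, 7.77, 7.60 and 7.69 in control kainate, 7.74, 7.25 and 7.30 in mutant saline and 7.69, 7.22 and 6.01 in mutant kainate. Replicate 1 of the mutants was level with the controls, and the difference of -0.53 ± 0.25 (adjusted p = 0.274) was -0.29 without mutant kainate replicate 3. Phf8, an X-linked demethylase with a PHD finger, whose promoter window holds the full element shown above, read 6.10, 5.82 and 5.61 in control saline and 5.85, 6.35 and 6.03 in control kainate. In mutants it read 5.84, 5.12 and 5.70 after saline and 5.86, 5.66 and 2.88 after kainate, where the last array was by far the lowest. The genotype difference was -0.78 ± 0.47 (adjusted p = 0.367), or -0.30 without that array. These Phf8 values come from 169219_f_at alone, since its other probe set (170564_at) read 1.19 to 1.31 and was not tested. Phf20, a subunit of the MOF acetyltransferase complex, read 6.79, 9.17 and 9.02 in control saline and 6.67, 8.73 and 8.87 in control kainate. In mutants it read 6.76, 8.71 and 9.22 after saline and 6.44, 8.41 and 6.93 after kainate. Replicate 1 was the lowest array of every group, and the kainate difference was -0.60 ± 0.66, or -0.60 ± 0.27 with the replicate number as a block (adjusted p = 0.375).

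Replicate 1 lay wholly above or below replicates 2 and 3 in 10 of the 33 probe sets. It was above in 5, for Chd5, Hdac4 with both, Phf24 and Smarcal1 (139157_at), which is 15.2%, against 6.78% of all tested probe sets. It was below in 5, for Arid5b, Kdm5a, Kmt2e, Phf20 and Smarca4 (165837_at), also 15.2%, against 2.29% of all. The mean over replicate 1 arrays and over the others was 6.67 and 8.63 for Phf20, 8.23 and 6.85 for Hdac4 (166861_at), 6.86 and 5.65 for Chd5 and 4.58 and 5.71 for Kmt2e. What set replicate 1 apart is not given in the labels used here.

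**Figure D4:**
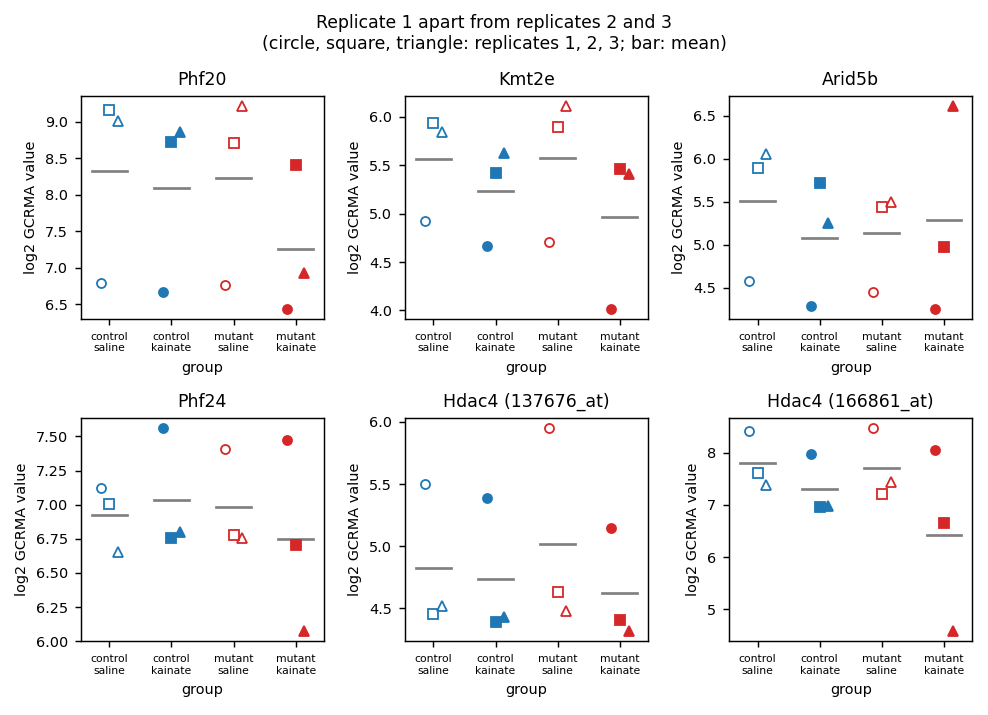
Log2 GCRMA values of Phf20, Kmt2e, Arid5b, Phf24 and both Hdac4 probe sets on each array, by group, with symbols for the replicate number and bars for the mean. The replicate 1 circles lie below the other arrays for Phf20, Kmt2e and Arid5b and above them for Phf24 and Hdac4.

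A second list of 225 other chromatin genes (DNA and histone methyltransferases, acetyltransferases, Polycomb proteins and co-repressors) showed as little. Of its genes, 59 had a probe set with 1 symbol, 26 were tested with 34 probe sets, and 0 passed in any of the 7 comparisons. No acetyltransferase of the list was among the tested genes, so nothing is shown for CBP and p300. At an unadjusted p under 0.05 in the averaged comparisons, 3 of the 34 were lower after kainate, against 8.11% of all tested probe sets. Between genotypes 4 differed (19.1% of all), 3 of them higher in mutants (14.3% of all). The median differences were -0.08 for kainate and -0.04 for genotype, against -0.04 and -0.01 for all. The largest kainate difference was that of Nsd2, a methyltransferase of lysine 36 of histone H3, at -0.62 ± 0.54, or -0.08 without the third kainate array of each genotype and with replicate 1 as a block. The largest genotype difference was that of Mllt3, a reader of acylated histones, at -0.72 ± 0.46 with 1 probe set, or -0.24 without those arrays and with that block, and 0.08 with each of its other 2 probe sets.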

How the data were processed

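Values are the deposited log2 GCRMA values of 12 arrays, which the authors made in R 2.4.1 with GCRMA (version not given), per the submitters' processing notes. GCRMA adjusts background by probe sequence, normalizes across arrays and summarises each probe set, which compresses low values. Probe sets were named from the platform annotation. The members and lists were chosen with earlier results of these data known.

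All 3541 probe sets with a log2 of at least 4 on at least 3 arrays were fitted with limma 3.58.1 (R 4.3.3), with a mean per group, 8 residual degrees of freedom and Benjamini-Hochberg adjustment. The fit was tested on simulated data. The number of arrays limits the precision, and nothing in the labels says whether the pools were independent beyond calling the arrays biological replicates.

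Named are any member past 0.05, the 3 largest non-overlapping in each direction per comparison (by size alone for the interaction), the largest averaged difference per prefix, genes with several tested probe sets, members next to the level of 4, and 2 per averaged comparison from the other chromatin list. Phf14 and others in counts of 5 or fewer, Hdac9, Phf24 and the printed promoters outside that rule were chosen after their values were seen.

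Same-numbered arrays deviated together: the correlations of deviations from group means were 0.627, 0.383 and 0.458 between the control groups, 0.855, 0.47 and 0.482 between the saline groups, 0.578, 0.333 and 0.19 between the kainate groups, but 0.479, 0.0448 and -0.0779 between the mutant groups. The alternatives were no filter, a level of 5, repeated quantile normalization, only the arrays compared, trend with robust moderation, the replicate number or replicate 1 against 2 and 3 as a block, and leaving out each array or replicate 3 of both kainate groups.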

Additional observations from a re-analysis of the deposited data

How the results depend on the processing

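The count of 0 members past the threshold held under each alternative run, 144 counts in all, and with the replicate number as a block, which pairs the arrays, it was 0 in each comparison and the block changed no other call. The counts left after leaving out each array in turn ranged from 0 to 0. Of 597 recomputed differences of named members, 579 kept their direction and side of the threshold, 18 reversed and 0 came to pass it. Leaving out arrays in turn, the interaction ranged from -0.0891 to 1.09 for Arid5b, -0.0140 to 0.65 for Smarcd3 (170318_i_at), -0.0862 to 0.47 for Kdm7a, -1.58 to 0.15 for Hdac4 (166861_at) and -1.47 to 0.0320 for Phf20. Each of the first 4 reversed without mutant kainate replicate 3, and Phf20 without control saline replicate 1. In the same way the averaged kainate difference of Kdm7a ranged from -0.0464 to 0.23, and the averaged genotype differences of Kmt2e from -0.295 to 0.10 and of Arid4b from -0.50 to 0.13. Without replicate 3 of both kainate groups, with or without replicate 1 as a batch block, the interaction was -0.00667 for Arid5b and -0.12 for Kdm7a and the genotype difference of Arid4b was 0.0540, while the kainate difference of Kdm7a was -0.0301, or -0.0372 with the batch block. With repeated quantile normalization the genotype difference of Kmt2e was 0.0220. For these reversals the cause was not tested. Weak signals limit the members near a log2 of 4, where GCRMA compresses differences.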
